A study of Rattus norvegicus with 44 samples.

Results

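Blood taken from rats 1 day after environmentally-induced hyperthermia (EIH, a rise in body temperature brought on by the surroundings) was compared with blood taken 3 h after it. The 8 arrays were chosen by their labels alone, as the blood arrays of the EIH group, 4 at 1 day and 4 at 3 h, out of 44 arrays in the series. The series measured expression in the choroid plexus and in blood after saline, EIH or amphetamine (AMPH). All blood came from male Sprague-Dawley rats of the NCTR strain, 3 months old, and each array held RNA of 1 rat, so that no rat was measured at both times. The blood was trunk blood collected at decapitation, according to the protocol, although a tissue tag on the samples mentions the striatum. The 4 rats of the saline group at each time had received saline and no heating, and the 4 AMPH rats at each time had received amphetamine. The labels name neither the temperature reached nor the length of the heating. Total RNA was labelled with the dye Cy3 and hybridised to Agilent arrays of rat transcripts, 1 colour per array.

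The arrays of the 2 times had been brought to different levels before deposit. The median intensity of the blood arrays lay between 139 and 146 at 3 h and between 165 and 171 at 1 day, a gap of up to 0.299 on the log2 scale, so every array was shifted to the same median before the times were compared. A change between 3 h and 1 day in 1 treatment can therefore hold a part that came with the processing of each time, and the time change of the saline rats, measured on arrays of the same 2 sets, is given beside that of the EIH rats. The difference of the time changes (EIH minus saline) compares the treatments within each time and is free of a shift common to all arrays of a time. Blank entries made up 8.57% of the blood values, from 2.11% on EIH 3 h replicate 3 to 17.1% on saline 1 day replicate 4. The latter array correlated with its own group at a mean r of 0.854, the lowest of the blood arrays. The numbers of 2 rats, saline 1 day replicate 1 and EIH 1 day replicate 3, are also listed in choroid plexus pools of the 3 h set, and results were recomputed without these rats with conflicting labels. All of EIH 1 day replicates 1, 2 and 3 are also listed in choroid plexus pools whose titles name controls while their source and treatment labels name EIH at 1 day. Replicates 1 and 2 were kept in every such recomputation, and this conflict was not tested beyond leaving out each of them singly. The red cell genes Alas2 and Hemgn, the platelet gene Pf4, the neutrophil gene S100a8, the T cell gene Cd3g and the B cell gene Cd79b had a value on all 16 saline and EIH arrays, with group means of log2 intensity from 9.83 (Cd79b at 3 h after EIH) upwards. In whole blood, fewer cells of a type and less RNA per cell cannot be told apart, and p-values measure only the spread between these rats.

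Heat unfolds proteins, and the transcription factor Hsf1 then drives genes for chaperones, which hold, refold or pass on damaged proteins. Hsf1 binds inverted repeats of the triplet GAA in the promoters of its targets. Blood carries red cells and platelets beside neutrophils, monocytes and lymphocytes, and stress hormones are known to bring neutrophils into the circulation and to move lymphocytes out of it for some hours.

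Between 3 h and 1 day after EIH, 13 of 30 heat shock genes fell, as did 16 of 27 immediate early, 10 of 36 cytokine and 19 of 28 neutrophil genes. Over the same time 9 of 26 T cell, 4 of 14 B cell and 8 of 14 MHC class II genes rose. Of 9936 genes tested, 2024 changed (20.4%), of which 853 (8.58%) were higher at 1 day and 1171 (11.8%) were lower (limma, Benjamini-Hochberg adjusted p under 0.05). Among these, 1309 changed at least 2-fold. In the saline rats, 139 of 9707 genes changed between the same times (1.43%), 28 higher (0.288%) and 111 lower (1.14%). Without saline 1 day replicate 4 the saline count was 23, and it ran from 5 without saline 3 h replicate 4 to 458 without saline 1 day replicate 1. The EIH time change differed from the saline time change for 846 of 9483 genes (8.92%), with 475 (5.01%) higher and 371 (3.91%) lower, and for 754 genes without saline 1 day replicate 4. Leaving out 1 array lowered this count to 441 (saline 3 h replicate 1), 467 (EIH 1 day replicate 4) or 559 (EIH 1 day replicate 3). The median over all genes was -0.14 for the EIH time change, -0.14 for the saline time change and 0.02 for their difference. On the values as deposited, without the shift, the median EIH time change was 0.11, and the share of changed genes that were higher was 65.2% in place of 42.1%. That share was 54.2% with quantile normalisation and 53.4% with arrays set to the same 75th percentile.

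The 4 arrays of each time did not overlap for 2657 of the 7811 genes with a value on all 8 EIH arrays (34%), with 1130 (14.5%) higher at 1 day and 1527 (19.5%) lower. Blank entries kept 476 genes from being tested for the EIH time change. Among them were 13 genes with a value on all 4 arrays at 3 h and on none at 1 day, and 0 genes with the opposite pattern. Of the 111 genes that fell in the saline rats, 75 also fell in the EIH rats. Of the 28 that rose in the saline rats, 2 also rose in the EIH rats.

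**Figure D1:**
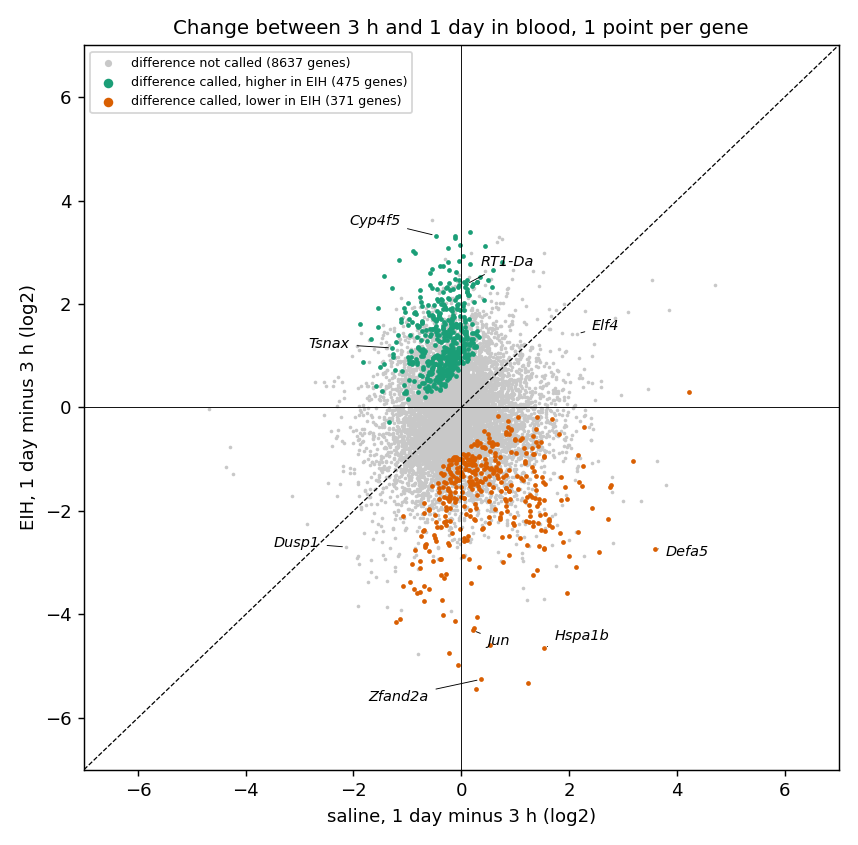
Change between 3 h and 1 day in blood for 9483 genes, with the log2 change in saline rats on the x axis and that in EIH rats on the y axis. Grey points are genes whose time changes did not differ, green points the 475 genes higher and orange points the 371 genes lower in EIH relative to saline, and the dashed line marks equal change; Zfand2a lies at -5.26 in EIH and 0.36 in saline, and Dusp1, at -2.70 and -2.14, is grey.

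Of 33 heat shock and chaperone genes on the list, 30 had a probe, and 13 of 30 fell between 3 h and 1 day while 0 rose, with a median change of -1.38 against -0.14 over all genes. The 13 were Hspa1b, Hspa1l, Hspa8, Hsph1, Hspb1, Dnaja1, Bag3, Stip1, Ahsa2, Chordc1, Hspd1, Hspe1 and Zfand2a. In the saline rats 1 of 29 fell, Dnaja4, a call lost under the alternatives given below with its values, and the median was -0.32. The difference of the time changes was called for 7 of 29, all lower, with a median of -1.0. The intensities of the 27 members with a value on every array, added up, ran from 131147 to 368533 (median 334697) at 3 h and from 72276 to 99186 (median 84488) at 1 day after EIH. The same sum had a median of 34700 in the saline rats at 3 h and 32521 at 1 day, with a highest value of 50372. The summed level at 1 day after EIH thus lay below every EIH array at 3 h and above every saline array.

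The promoters below show where the paired triplets lie that Hsf1 is known to bind. Capitals mark GAANNTTC and TTCNNGAA, in which N is any base and which read the same on both strands, and overlapping matches run together. Each stretch is 130 bases long, reads 5′ to 3′ on the gene's strand and comes from RefSeq on assembly GRCr8. Genes were matched by symbol. Hspe1 (chr9:64084197-64084326, plus strand), the mitochondrial co-chaperone, has matches that begin 65, 60 and 55 bases upstream of the start site. Serpinh1 (chr1:163062977-163063106, minus strand), the collagen chaperone, has them at 35 and 30 bases. Hspb1 (chr12:26432302-26432431, minus strand), a small heat shock protein, has them at 129 and 109 bases. Zfand2a (chr12:20275200-20275329, plus strand), a zinc finger protein of the arsenite and heat response that acts at the proteasome, has 1 at 210 bases. Hsph1 (chr12:10427238-10427367, plus strand), the nucleotide exchange factor Hsp110, has them at 105, 36 and 31 bases. Dnajb1 (chr19:41431142-41431271, minus strand), the Hsp40 partner of Hsp70, has 1 at 11 bases.
Hspe1: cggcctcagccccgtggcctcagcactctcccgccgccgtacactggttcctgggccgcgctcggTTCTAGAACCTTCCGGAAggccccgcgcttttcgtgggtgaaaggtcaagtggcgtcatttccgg
Serpinh1: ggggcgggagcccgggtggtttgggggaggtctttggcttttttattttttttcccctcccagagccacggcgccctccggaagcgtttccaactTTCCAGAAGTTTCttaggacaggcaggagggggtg
Hspb1: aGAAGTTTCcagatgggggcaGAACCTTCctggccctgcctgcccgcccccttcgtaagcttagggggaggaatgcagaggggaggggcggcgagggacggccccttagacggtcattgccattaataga
Zfand2a: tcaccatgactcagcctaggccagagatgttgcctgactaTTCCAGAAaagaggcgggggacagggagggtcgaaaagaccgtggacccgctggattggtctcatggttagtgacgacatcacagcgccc
Hsph1: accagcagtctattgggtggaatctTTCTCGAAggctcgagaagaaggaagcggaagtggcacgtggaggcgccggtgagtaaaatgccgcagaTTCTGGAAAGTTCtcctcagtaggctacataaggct
Dnajb1: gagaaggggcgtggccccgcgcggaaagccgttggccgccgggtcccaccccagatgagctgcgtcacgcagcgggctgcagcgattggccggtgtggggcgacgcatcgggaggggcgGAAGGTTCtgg

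The stretches of Hspe1, Serpinh1 and Hsph1 hold at least 3 alternating triplets in a row, spaced by NN. Over 33469 RefSeq promoter windows of 250 upstream bases, 7.23% held GAANNTTC, 7.48% held TTCNNGAA, 13.5% held either, and 0.663% held 3 triplets in a row. Of the 33 heat shock genes, 27 had a window, 15 of these held either pattern and 5 held 3 triplets in a row. A window was found for 12 of the 13 genes that fell after EIH, and 9 of the 12 held either pattern. Of 17 members with no called change, 12 had a window and 6 of those held either pattern. A match describes the letters in the window and is not a measured binding site.

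Zfand2a showed the largest measured fall on the list. Its log2 intensity was 9.81, 12.87, 13.35 and 12.79 in the 4 rats at 3 h after EIH and 7.08, 6.34, 7.0 and 7.38 in the 4 rats at 1 day. Every 1 day rat lay below every 3 h rat, and replicate 1 was the lowest at 3 h. The saline rats had 6.76, 7.31, 6.68 and 5.70 at 3 h and 6.39, 8.34, 6.96 and 6.20 at 1 day, so the EIH rats at 1 day lay within the range of the saline rats at that time. The fall was -5.26 ± 0.78 on the log2 scale (SE; limma, adjusted p = 0.00013), or 38.2-fold, and differed from the saline change by -5.61 ± 1.10 (adjusted p = 0.00695). Hspa1b, an inducible Hsp70, read 14.50, 16.08, 16.06 and 16.12 at 3 h and 12.06, 9.61, 11.05 and 11.48 at 1 day, with no overlap. The highest of these values lie at the top of the deposited scale, 60000 in intensity, so the level at 3 h is a lower limit there and the 2 falls cannot be ranked. The measured fall was -4.64 ± 0.99 (24.9-fold, adjusted p = 0.00224), and another probe of the gene gave -2.24. The saline rats spread from 6.18 to 12.09 at 3 h for Hspa1b, and the difference of the time changes was -6.17 ± 1.40 (adjusted p = 0.0132). Without EIH 3 h replicate 1 the falls were -6.05 for Zfand2a and -5.04 for Hspa1b.

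Hspb1 and the mitochondrial pair Hspd1 and Hspe1 followed. Hspb1 read 11.20, 12.28, 12.04 and 12.11 at 3 h against 7.57, 7.45, 7.78 and 7.75 at 1 day, a fall of -4.27 ± 0.68 (19.3-fold, adjusted p = 0.000224) that differed from saline by -4.51 ± 0.97 (adjusted p = 0.00938). Hspd1, the mitochondrial chaperonin Hsp60, read 11.45, 13.78, 13.80 and 12.99 against 8.97, 9.02, 9.67 and 9.37, a fall of -3.75 ± 0.60 (adjusted p = 0.000218). Its co-chaperone Hspe1 read 13.17, 15.11, 15.23 and 15.06 against 12.14, 11.76, 12.06 and 12.27, a fall of -2.58 ± 0.45 (adjusted p = 0.000434). The groups of neither gene overlapped, and replicate 1 was the lowest at 3 h for both. Their start sites face away from each other at 64084037 and 64084327 on chromosome 9, with 289 bases between them, and the 250-base windows of the pair share 211 bases, the matches shown above among them. The fall differed from that of the saline rats by -3.06 ± 0.85 for Hspd1 (adjusted p = 0.03) and -2.64 ± 0.64 for Hspe1 (adjusted p = 0.0168). The call of this difference for Hspd1 was lost on leaving out any 1 of 7 of the 16 arrays (saline 3 h replicates 1 and 3, EIH 3 h replicates 2 and 3, saline 1 day replicate 2, EIH 1 day replicates 1 and 4), with an adjusted p of up to 0.0571, and without the rats with conflicting labels. Hspd1 and Hspe1 were singled out after their values had been seen.

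Dnaja1, an Hsp40 that delivers clients to Hsp70, had the lowest p on the list. It read 14.44, 15.52, 15.69 and 15.31 at 3 h and 13.19, 12.48, 12.92 and 12.69 at 1 day, a fall of -2.42 ± 0.27 (5.35-fold, adjusted p = 2.26e-05) that differed from saline by -2.25 ± 0.38 (adjusted p = 0.00364). Hspa8, the constitutive Hsp70, read 13.65, 14.74, 14.65 and 14.31 against 13.04, 12.72, 12.88 and 12.93 and fell by 1.44 ± 0.30 (adjusted p = 0.00192), and its difference from the saline change was -0.80 (adjusted p = 0.255). Bag3, which links Hsp70 to autophagy, fell by 2.72 ± 0.51 (adjusted p = 0.000802), with a difference from saline of -2.29 ± 0.72 (adjusted p = 0.0514). Neither Hspa8 nor Bag3 overlapped between the EIH times. Serpinh1, chosen after its values were seen, did not pass for the EIH change (-0.78 ± 0.40, adjusted p = 0.191), and its difference of -1.94 ± 0.56 (adjusted p = 0.0364) rested in part on a saline change of 1.16 ± 0.40. That call was lost on leaving out any 1 of 10 of the 16 arrays, with an adjusted p of up to 0.0789 without saline 3 h replicate 1.

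At 1 day after EIH, 4 of 30 heat shock genes were called above saline, 3 of which are described here. Hsph1 read 11.08, 13.85, 14.01 and 13.84 at 3 h and 10.82, 10.15, 10.52 and 10.70 at 1 day, while the saline rats lay between 6.56 and 7.70 at 3 h and between 5.88 and 8.29 at 1 day. It fell by 2.65 ± 0.61 between the times (adjusted p = 0.00384; by 3.35 without EIH 3 h replicate 1), and at 1 day it was still 3.63 ± 0.61 above saline (adjusted p = 0.0243). Hsp90aa1, the inducible Hsp90, read 12.85, 15.04, 15.29 and 14.98 at 3 h and 14.24, 13.70, 13.78 and 13.69 at 1 day. The 2 times overlapped for Hsp90aa1, with replicate 1 the lowest rat at 3 h and the highest at 1 day, and the change of -0.69 ± 0.59 did not pass (adjusted p = 0.466). Dnajb1 read 11.61, 13.20, 13.03 and 12.75 against 12.32, 12.22, 11.97 and 11.86, which also overlapped, and its change was -0.55 ± 0.44 (adjusted p = 0.428). Hsp90aa1 was 4.70 and Dnajb1 2.94 above saline at 3 h, and 3.31 ± 0.58 (adjusted p = 0.0339) and 2.69 ± 0.44 (adjusted p = 0.0243) above saline at 1 day. For Hsph1, Hsp90aa1 and Dnajb1 every EIH rat lay above every saline rat at 1 day, but the calls at 1 day were lost without any 1 of 6 of the 8 arrays (all but replicate 2 of either group), with an adjusted p of up to 0.116 without EIH 1 day replicate 4 for Hsph1 and Hsp90aa1. They were also lost with only the compared groups in the fit (adjusted p = 0.196, 0.18 and 0.18) and without the rats with conflicting labels (0.115, 0.133 and 0.113), while the differences stayed at 2.43 or more. Hsf1 itself, singled out after its values were seen, was lower than in saline rats at 3 h by -0.61 ± 0.18 (adjusted p = 0.0321), a call lost without any 1 of 5 of the 8 arrays (EIH 3 h replicates 3 and 4, saline 3 h replicates 1, 2 and 3; adjusted p of up to 0.10). It read 9.79, 9.84, 9.67 and 9.47 at 3 h and 9.88, 9.73, 10.18 and 10.30 at 1 day after EIH, which overlapped.

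**Figure D2:**
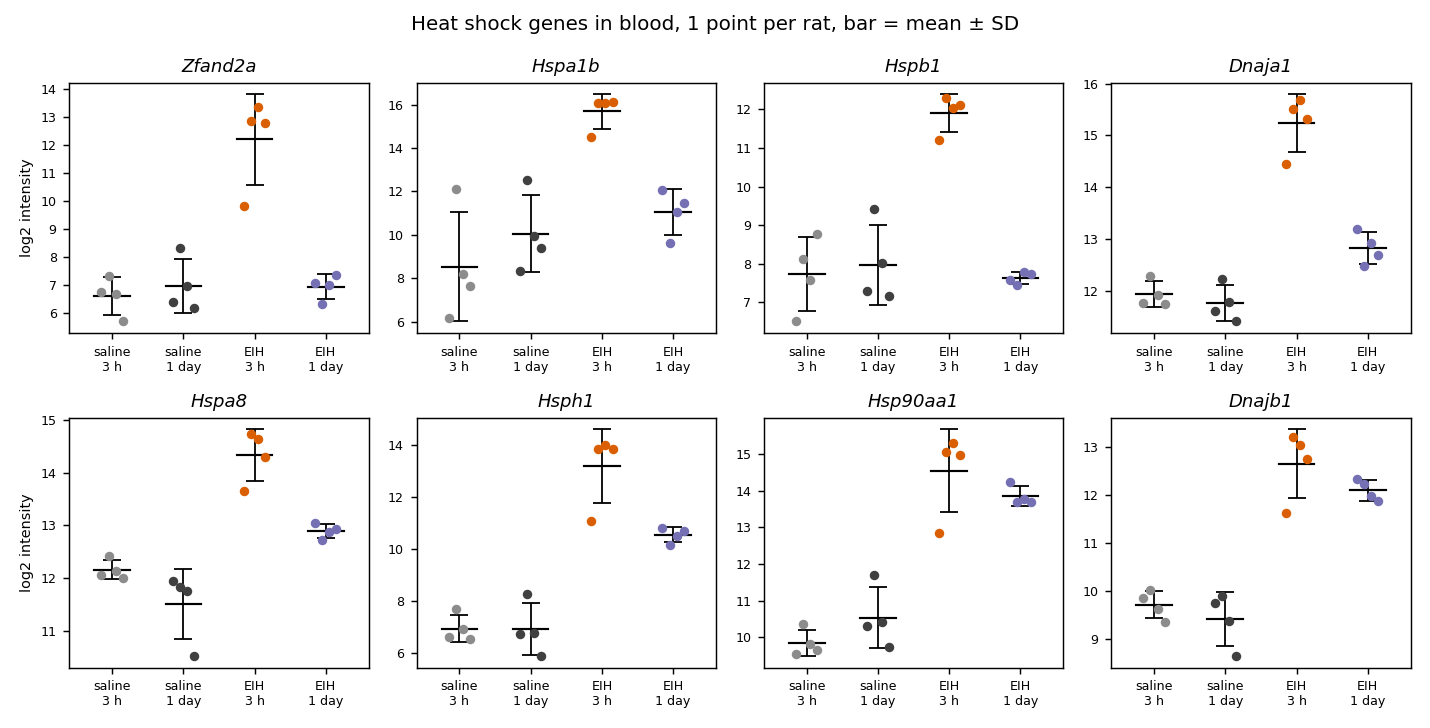
Log2 intensity of 8 heat shock genes in blood of saline and EIH rats at 3 h and 1 day, 1 point per rat, with the mean and SD of the 4 rats as a line and bar. Zfand2a, Hspa1b and Hspb1 at 1 day after EIH lie among or near the saline rats, whereas Hsph1, Hsp90aa1 and Dnajb1 remain above them, by 3.63, 3.31 and 2.69 on the log2 scale.

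Of 20 measured genes on the oxidative stress and metallothionein list, 8 fell and 1 rose (Gclm), with a median of -0.42. The falls were 4 on the values as deposited or with quantile normalisation and 6 at the same 75th percentile, and the rise was lost without EIH 3 h or EIH 1 day replicate 1, 2 or 3. In the saline rats 2 of 19 fell, and the difference from saline was called lower for 4 of 19. Hmox1, heme oxygenase, read 10.70, 12.38, 11.87 and 11.62 at 3 h and 9.33, 8.99, 9.03 and 9.01 at 1 day, and the saline rats lay between 8.39 and 9.26 over both times. Its fall of -2.55 ± 0.43 (adjusted p = 0.000305) left no overlap and differed from saline by -2.66 ± 0.60 (adjusted p = 0.0126). Nfe2l2, the transcription factor Nrf2 that drives antioxidant genes, fell by 1.69 ± 0.21 (adjusted p = 4.86e-05), and Txnrd1, thioredoxin reductase, fell by 1.93 ± 0.36 (adjusted p = 0.000746). On the endoplasmic reticulum stress list, 7 of 20 measured genes fell, with a median of -0.40 against -0.24 in saline rats. The difference from saline had a median of 0.003, with 10 estimates above 0 and 10 below. It was called lower for 1, Ddit3, the transcription factor CHOP (5%, against 3.91% of all genes). The 7 were 4 without EIH 3 h replicate 4, 3 without EIH 1 day replicate 1 and as few as 3 over the scalings. Ddit3 read 10.35, 10.87, 10.77 and 10.55 against 9.25, 9.63, 9.48 and 9.45, a fall of -1.18 ± 0.19 (adjusted p = 0.000224) with a difference from saline of -1.26 ± 0.27 (adjusted p = 0.00889).

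Immediate early genes encode transcription factors and phosphatases that cells switch on within minutes of a stimulus. Of 27 tested, 16 fell and 2 rose (Klf2 and Klf4), with a median of -1.54, whereas in the saline rats 1 of 26 fell and the median was -0.10. The difference from saline was called for 12 of 26, 11 lower and 1 higher. Jun, a subunit of the transcription factor AP-1, read 11.20, 12.99, 12.85 and 12.62 at 3 h after EIH and 7.99, 7.70, 8.78 and 7.97 at 1 day. The groups lay far apart, the saline rats spanned 7.73 to 9.0 at 3 h and 8.06 to 8.91 at 1 day, and the fall was -4.31 ± 0.55 (19.8-fold, adjusted p = 5.14e-05; difference from saline -4.52 ± 0.77, adjusted p = 0.00364). Junb, another AP-1 subunit, read 11.34, 12.01, 12.50 and 12.21 against 8.92, 8.51, 9.26 and 8.98, an 8.54-fold fall (-3.09 ± 0.31, adjusted p = 1.15e-05). The saline rats moved the same way for Junb, by -0.77 (adjusted p = 0.202), and the difference was -2.32 ± 0.43 (adjusted p = 0.00586).

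Fos, a partner of Jun in AP-1, read 10.69, 11.73, 11.76 and 11.38 at 3 h and 7.78, 7.42, 8.51 and 8.05 at 1 day, a fall of -3.45 ± 0.45 (adjusted p = 5.37e-05) with a difference from saline of -2.37 ± 0.63 (adjusted p = 0.0269). Atf3, a stress-induced repressor, read 9.96, 11.70, 12.18 and 11.84 against 7.47, 7.42, 7.73 and 6.90, a 16.5-fold fall (adjusted p = 8.06e-05). Fosl2 fell by 2.49 ± 0.34 (adjusted p = 7.25e-05) and Ier3, chosen after its values were seen, by 2.93 ± 0.45 (adjusted p = 0.000164). None of these overlapped between the times. Klf2, a factor of quiescent lymphocytes and endothelium, went the other way: 10.53, 9.70, 10.23 and 10.35 at 3 h against 10.93, 11.03, 11.47 and 11.63 at 1 day, a rise of 1.06 ± 0.24 (adjusted p = 0.00391) with a difference from saline of 1.74 ± 0.34 (adjusted p = 0.00717). Klf4 rose by 1.25 ± 0.20 (adjusted p = 0.000233), with a difference from saline of 0.73 (adjusted p = 0.109). Both were singled out after their values were seen.

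Dusp1, the phosphatase that switches off p38 and JNK and is induced by glucocorticoids, was called lower at 1 day in both treatments. It read 11.41, 11.90, 12.12 and 12.00 at 3 h and 9.43, 8.49, 9.60 and 9.13 at 1 day after EIH, and 10.06, 10, 10.18 and 9.71 at 3 h and 8.34, 6.78, 9.02 and 7.26 at 1 day after saline. Within each treatment every 1 day rat lay below every 3 h rat. The falls of -2.70 ± 0.41 (adjusted p = 0.000162) and -2.14 ± 0.41 (adjusted p = 0.0228) differed by -0.56 (adjusted p = 0.605). The saline call was lost without saline 3 h replicate 2, 3 or 4 or saline 1 day replicate 4 (adjusted p of up to 0.0711), with quantile normalisation (0.0511) and with only the compared groups in the fit (0.285). On the glucocorticoid list, 9 of 25 measured genes fell and 1 rose after EIH, with a median of -0.68. The rise was lost without EIH 3 h replicate 2 or 4 or EIH 1 day replicate 1, 3 or 4. The difference from saline was called lower for 1 of 24 (4.17%, against 3.91% of all genes). It was called for 0 without any 1 of 12 of the 16 arrays (all but EIH 3 h replicate 1, with which left out 2 were called, saline 3 h replicate 4 and saline 1 day replicates 3 and 4). Fkbp5, a glucocorticoid-induced immunophilin, changed by -0.89 ± 0.34 after EIH (adjusted p = 0.0667) and by -0.92 ± 0.33 after saline, a difference of 0.03. Of 18 clock genes tested, 4 fell and 0 rose after EIH (22.2% lower, against 11.8% of all genes), and 4 fell and 3 rose on the values as deposited. The median was -0.35, against -0.38 in saline rats. The difference from saline was called higher for 1 and lower for 1 of 17 (11.8% called, against 8.92% of all genes). Leaving out 1 array gave 0 to 1 of each. Per1, a clock repressor that glucocorticoids also induce, fell by 1.61 ± 0.39 (adjusted p = 0.00594), with a difference from saline of -1.26 (adjusted p = 0.158), while Dbp changed by 0.61 ± 0.23 (adjusted p = 0.0625).

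On the list of cytokines and chemokines, 10 of 36 measured genes fell and 0 rose after EIH, with a median of -0.72 against -0.24 in saline rats, in which 0 were called, and the difference was called lower for 5 of 34 (3 without saline 3 h replicate 1 or 3, EIH 3 h replicate 4, saline 1 day replicate 2 or EIH 1 day replicate 4). Il1b, the fever-inducing interleukin-1 beta, read 14.79, 15.10, 15.30 and 15.18 at 3 h and 12.60, 12.38, 13.21 and 12.67 at 1 day. The saline rats held 13.18 to 13.73 at 3 h and 12.37 to 13.16 at 1 day, so Il1b was above saline at 3 h and in the saline range or just beyond it at 1 day. It fell by 2.38 ± 0.26 (5.20-fold, adjusted p = 1.57e-05), with a difference from saline of -1.67 ± 0.36 (adjusted p = 0.00938). Ccl2, the monocyte-attracting chemokine MCP-1, read 10.82, 11.06, 11.66 and 10.84 against 8.35, 7.46, 9.33 and 8.58, a fall of -2.66 ± 0.69 (adjusted p = 0.00883). Its difference from saline, -3.89 ± 0.98 (adjusted p = 0.0198), was -3.18 without saline 1 day replicate 4, which held 10.82. Ptgs2, cyclooxygenase-2, read 5.85, 9.96, 9.70 and 9.30 at 3 h and 4.02, 3.85, 4.50 and 4.11 at 1 day, and Nos2, the inducible nitric oxide synthase, read 7.81, 10.48, 10.95 and 10.80 against 4.65, 4.88, 5.52 and 6.03. Replicate 1 stood well below the other rats at 3 h for both, and every 3 h rat was above every 1 day rat. The falls were 24-fold for Ptgs2 (-4.58 ± 0.72, adjusted p = 0.000195) and 26.8-fold for Nos2 (-4.74 ± 0.71, adjusted p = 0.000131). Without EIH 3 h replicate 1 they were -5.53 and -5.48, and the differences from saline in the full set were -5.11 ± 1.02 (adjusted p = 0.00739) and -4.51 ± 1.00 (adjusted p = 0.0113).

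Neutrophil genes had the highest count of falls among the lists of blood cell types: 19 of 28 tested fell and 0 rose after EIH, with a median of -2.03, and 1 of 29 fell in saline rats (Csf3r, -1.31, a call lost without any 1 saline array but saline 1 day replicate 1, under each other scaling, and with only the compared groups in the fit, with an adjusted p of 0.286), with a median of -0.30. The difference from saline was called lower for 10 of 28, for 5 without EIH 3 h replicate 4, and for 6 without saline 3 h replicate 1, EIH 3 h replicate 3 or EIH 1 day replicate 1 or 4. The 24 members with a value on every array summed to 187301 to 238159 in intensity at 3 h after EIH and to 52240 to 79577 at 1 day, against 81505 to 101845 and 44671 to 77378 in saline rats. The neutrophil sum was thus above every saline rat at 3 h and close to the saline range at 1 day. Padi4, the enzyme that citrullinates histones in neutrophils, read 12.35, 12.92, 12.76 and 12.64 against 10.48, 10.16, 10.42 and 10.24, a fall of -2.34 ± 0.36 (adjusted p = 0.000174). Camp, the antimicrobial cathelicidin, read 12.24, 13.06, 12.57 and 12.60 against 10.43, 10.69, 8.82 and 8.58, a fall of -2.99 ± 0.50 (adjusted p = 0.000335; another probe gave -1.25). Saline 1 day replicate 4 was high for both, at 12.15 and 12.71. The differences from saline, -2.32 ± 0.51 for Padi4 and -3.76 ± 0.71 for Camp, were -1.87 (adjusted p = 0.0111) and -3.21 without that array.

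The neutrophil collagenase Mmp8 read 11.49, 12.83, 12.79 and 12.52 against 9.24, 8.18, 9.24 and 8.93, a fall of -3.51 ± 0.51 (adjusted p = 0.000115), and the chemokine receptor Cxcr2 read 9.62, 9.64, 9.74 and 10.03 against 7.32, 7.61, 8.10 and 7.71, a fall of -2.08 ± 0.31 (adjusted p = 0.00013). Neither overlapped. Their differences from saline were -2.63 ± 0.72 (adjusted p = 0.0286) and -1.59 ± 0.43 (adjusted p = 0.0289). The call was lost without saline 3 h replicate 1 (adjusted p = 0.0637 and 0.0614), EIH 3 h replicate 4 or EIH 1 day replicate 4 for both, without EIH 3 h replicate 3 or saline 1 day replicate 4 for Mmp8, and without EIH 1 day replicate 1 for Cxcr2. S100a8, a calprotectin subunit, fell by 1.89 ± 0.41 (adjusted p = 0.00258), and the saline rats changed by -1.11, a difference of -0.77 (adjusted p = 0.448). S100a9, the other subunit, could not be read in the same way: replicate 3 held 8.65 at 3 h and 7.17 at 1 day after EIH, beside 14.95, 15.50 and 15.39 and 12.88, 12.50 and 13.29 in the other rats, and replicate 3 was also the lowest in both saline groups. Its change of -2.16 ± 1.75 did not pass (adjusted p = 0.437). Defa5, a defensin that the list holds as a granule gene, read 12.40, 12.71, 11.76 and 11.74 against 10.50, 11.44, 6.84 and 8.94, while the saline rats went from 4.83, 8.31, 9.03 and 5.87 to 10.54, 11.20, 9.40 and 11.26. The fall of -2.73 ± 0.92 after EIH (adjusted p = 0.0393) was lost without any 1 EIH 3 h array or without EIH 1 day replicate 3 or 4 (adjusted p of up to 0.155), and the difference from saline was -6.31 ± 1.29 (adjusted p = 0.00821).

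Of 28 measured monocyte and macrophage genes, 8 fell and 1 rose (Adgre1, by 0.84), with a median of -0.57 against -0.26 in saline rats. The rise was lost without EIH 3 h replicate 3 or 4 or EIH 1 day replicate 1 or 3. The difference from saline was called for 6, all lower (3 without saline 3 h replicate 1 or EIH 3 h replicate 4). Over all 28 its median was -0.20, with 13 estimates above 0 and 15 below. Fcgr2a, a low-affinity IgG receptor, read 12.26, 13.09, 13.09 and 12.55 against 10.11, 9.91, 10.62 and 10.40, a fall of -2.49 ± 0.30 (adjusted p = 3.91e-05) with a difference from saline of -1.74 ± 0.42 (adjusted p = 0.0164). Cd14, the co-receptor for lipopolysaccharide, read 11.67, 12.23, 13.59 and 13.48 against 9.02, 8.57, 9.78 and 9.77, a fall of -3.46 ± 0.59 (adjusted p = 0.000347; another probe -3.42). The groups of both were separate. The difference of Cd14 from saline, -2.77 ± 0.83 (adjusted p = 0.0406), was lost without any 1 of 11 of the 16 arrays, with an adjusted p of up to 0.0866 without saline 3 h replicate 1. Spi1, the myeloid transcription factor PU.1, fell by 1.83 ± 0.30 (adjusted p = 0.000277), and C1qb, a chain of complement C1q, fell by 1.17 ± 0.28 (adjusted p = 0.00557). Other monocyte markers went both ways. From 3 h to 1 day after EIH, mean log2 intensity went from 9.27 to 9.94 for Csf1r and from 6.96 to 7.72 for Cx3cr1. For Ccr2 it went from 9.56 to 8.16.

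Of 26 T cell genes tested, 9 rose and 0 fell after EIH, with a median of 1.45, whereas 0 were called in saline rats, with a median of -0.50, and the difference was called higher for 6 of 26. Leaving out 1 array gave 6 to 11 rises after EIH, and the 6 of the difference became 3 without saline 3 h replicate 1 or EIH 3 h replicate 4 and 10 without EIH 3 h replicate 1. The 20 members with a value on every array summed to 10113 to 24798 at 3 h after EIH and to 34176 to 42906 at 1 day, against 39654 to 52520 and 33452 to 47886 in saline rats. The T cell sum was thus below every saline rat at 3 h and within the saline range at 1 day. Cd3g, a chain of the T cell receptor complex, read 12.21, 11.57, 10.47 and 10.23 at 3 h and 13.43, 13.29, 13.23 and 12.97 at 1 day. The groups were separate and the 3 h rats the more spread, and the rise was 2.11 ± 0.42 (4.31-fold, adjusted p = 0.0012), with a difference from saline of 2.49 ± 0.59 (adjusted p = 0.0155; 2.25 without saline 1 day replicate 4). Cd8a, the co-receptor of cytotoxic T cells, read 9.03, 8.91, 7.88 and 8.05 against 10.32, 10.31, 10.13 and 9.95, a 3.27-fold rise (1.71 ± 0.30, adjusted p = 0.000434; difference 2.21 ± 0.42, adjusted p = 0.00622). Cd3e, another receptor chain, read 8.92, 8.49, 7.93 and 6.52 against 9.40, 9.68, 9.53 and 9.54 and rose by 1.58 ± 0.40 (adjusted p = 0.00763), a call that was lost when only the compared groups entered the fit.

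Of 14 measured B cell genes, 4 rose and 0 fell after EIH, with a median of 0.69 against -0.50 in saline rats, and the difference was called higher for 1 of 14, Cd79b (7.14%, against 5.01% of all genes). That count was 3 without saline 1 day replicate 2 or 3 or EIH 1 day replicate 2, and 2 without EIH 3 h replicate 2. Cd79b, a signalling chain of the B cell receptor, read 9.80, 10.12, 9.59 and 9.80 against 11.42, 11.17, 11.68 and 12.12, a rise of 1.77 ± 0.36 (adjusted p = 0.00165) with a difference from saline of 2.18 ± 0.51 (adjusted p = 0.0153). Fcer2, the low-affinity IgE receptor of B cells, read 9.29, 9.60, 9.14 and 8.56 against 11.55, 11.25, 11.40 and 11.67, a rise of 2.32 ± 0.57 (adjusted p = 0.00627) with a difference of 2.55 ± 0.81 (adjusted p = 0.0537). Of 14 genes of the MHC class II pathway, 8 rose and 1 fell (Ctsh, by 1.92), with a median of 1.10 against -0.09 in saline rats, and the difference was called higher for 6 of 13. Leaving out 1 array gave 5 to 7 rises, the 5 without EIH 1 day replicate 4. RT1-Da, a class II chain, read 11.60, 11.73, 11.09 and 11.12 against 13.79, 13.32, 13.81 and 14.16, a 5.21-fold rise (2.38 ± 0.35, adjusted p = 0.00013; another probe 2.27) with a difference of 2.29 ± 0.50 (adjusted p = 0.0107). Ciita, the transactivator of the class II genes, read 6.34, 5.73, 6.49 and 6.92 against 9.32, 8.65, 9.01 and 9.15, a rise of 2.66 ± 0.35 (adjusted p = 5.45e-05) with a difference of 2.08 ± 0.49 (adjusted p = 0.016). All of these named rises left no overlap. RT1-DOa rose by 1.97 ± 0.43 (adjusted p = 0.00244). RT1-Ba, chosen after its values were seen, rose by 1.99 ± 0.44 (adjusted p = 0.00307), but the call of its difference from saline (2.07 ± 0.63, adjusted p = 0.0424) was lost without any 1 of 10 of the 16 arrays, with an adjusted p of up to 0.0934 without EIH 1 day replicate 4. Another probe of RT1-Ba, with a value on 1 EIH array at 3 h and 3 at 1 day, gave a change of -2.93, and the mean over both probes turned the difference from saline to -0.96.

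**Figure D3:**
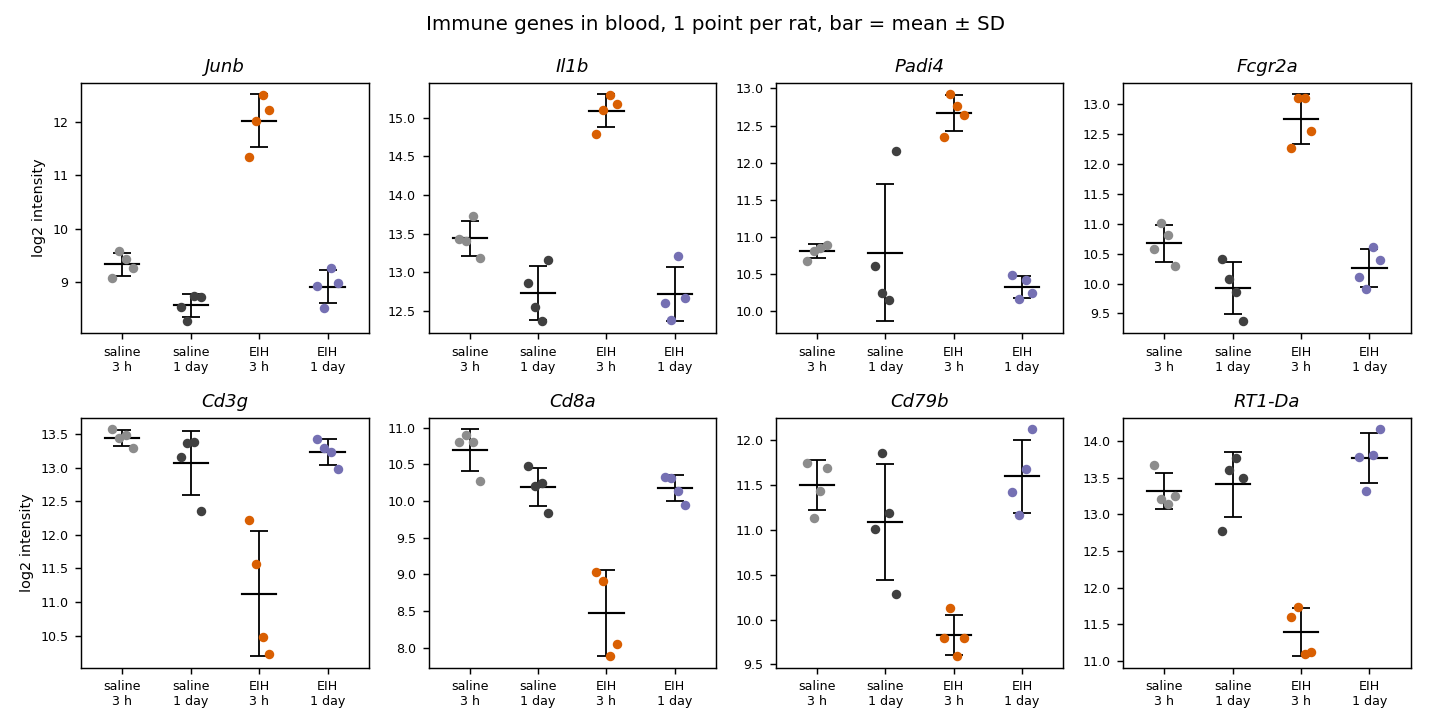
Log2 intensity of 8 immune genes in blood of saline and EIH rats at 3 h and 1 day, 1 point per rat, with the mean and SD of the 4 rats as a line and bar. Junb, Il1b, Padi4 and Fcgr2a are highest at 3 h after EIH, and Cd3g, Cd8a, Cd79b and RT1-Da are lowest there; saline 1 day replicate 4 is the high point of Padi4 at 12.15.

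Genes of natural killer and cytotoxic cells did not move together, with 13 estimates above 0 and 13 below. Of 26 measured, 3 fell, Gzmb, Nkg7 and Srgn (11.5%, close to the 11.8% of all genes). The median was -0.05 (0.20 on the values as deposited), and the difference from saline was called for 0. At 3 h after EIH 6 were below saline and 1 above, with a median of -0.89. At 1 day 0 were called, with a median of -0.61, 21 estimates below 0 and 5 above. Mean log2 intensity went from 8.41 at 3 h to 9.74 at 1 day after EIH for Klrd1 and from 6.87 to 6.47 for Ncr1. Gzmb, a granzyme, fell by 2.56 ± 0.62 (adjusted p = 0.00557; difference -2.38, adjusted p = 0.0925), while Prf1, perforin, read 8.67, 11.91, 10.71 and 10.40 against 9.83, 10.71, 9.96 and 9.93, which overlapped. Of 32 measured interferon response genes, 9 fell and 2 rose (4 without EIH 3 h replicate 1), with a median of -0.29 against -0.30 in saline rats. On the values as deposited 5 fell and 5 rose. The difference from saline was called lower for 0 of 32 and higher for 1, Mx1 (3.1%, against 5.01% of all genes). The antiviral GTPase Mx1 rose by 2.23 ± 0.51 (adjusted p = 0.00361), and its difference of 2.58 ± 0.72 (adjusted p = 0.0309) was lost without any 1 of 7 of the 16 arrays (adjusted p of up to 0.063 without EIH 3 h replicate 4). Of 31 measured erythroid genes, 14 fell and 0 rose, with a median of -0.70 against -0.33 in saline rats, in which 2 fell. The falls after EIH were 10 under each other scaling, with medians from -0.45 to -0.57. The difference from saline was called lower for 3 (0 without EIH 1 day replicate 4, 1 without saline 3 h replicate 1, 5 without EIH 1 day replicate 2). The 2 in saline rats were 5 without saline 1 day replicate 1, 1 without saline 3 h replicate 1 and 0 without any other saline array but saline 1 day replicate 2. Klf1, the erythroid transcription factor, fell by 0.88 ± 0.16 (adjusted p = 0.000696), with a difference from saline of -0.48 (adjusted p = 0.197). Alas2, the first enzyme of heme synthesis in red cells, was at the top of the scale on these arrays. Its mean log2 intensity went from 16.12 to 15.86 after EIH (-0.26, adjusted p = 0.109) and from 16.12 to 15.85 after saline. The EIH arrays had been shifted by 0.072 to 0.141 at 3 h and by -0.111 to -0.151 at 1 day. A value at the top of the scale moves with this shift, so the change of Alas2 cannot be read as one of its RNA. Of 17 measured platelet genes, 1 fell (5.88%, against 11.8% of all genes), and the medians were -0.51 after EIH and -0.54 after saline.

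The named genes that rose most after EIH were not on the blood cell lists. Cyp4f5, a fatty acid and eicosanoid hydroxylase, read 5.52, 5.36, 4.50 and 3.99 at 3 h and 8.35, 8.01, 8.20 and 8.10 at 1 day, while the saline rats lay at 7.49 to 8.03 at 3 h and 6.46 to 7.76 at 1 day. It was low at 3 h after EIH alone among these 4 groups, and the rise was 10-fold (3.32 ± 0.39, adjusted p = 3.91e-05), with a difference from saline of 3.80 ± 0.56 (adjusted p = 0.00199). Acot2, a mitochondrial acyl-CoA thioesterase, had the same shape: 6.16, 6.25, 4.68 and 3.99 against 8.68, 8.26, 8.20 and 8.24, an 8.43-fold rise (adjusted p = 5.14e-05; difference 3.32 ± 0.55, adjusted p = 0.00364). Atp6v1g3, a subunit of the vacuolar proton pump, rose by 3.38 ± 0.57 (adjusted p = 0.000331), and its difference of 3.22 ± 0.81 (adjusted p = 0.0196) was lost without the rats with conflicting labels. Dnmt3b, a DNA methyltransferase, rose by 3.13 ± 0.44 (adjusted p = 9.27e-05), Klhl8, an adaptor of a ubiquitin ligase, by 3.03 ± 0.60 (adjusted p = 0.0012), and Jup, plakoglobin, by 2.98 ± 0.56 (adjusted p = 0.00087). Without saline 1 day replicate 4 the difference from saline was 3.49 for Cyp4f5 and 3.33 for Jup, against 3.80 and 3.85 with it.

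Of 24 measured p53 and apoptosis genes, 3 rose and 5 fell (33.3% called, against 20.4% of all genes). The median was -0.39, against -0.43 in saline rats. The difference from saline was called higher for 3 and lower for 4, with a median of 0.02. Sesn1, a p53 target that restrains mTOR signalling, read 8.35, 7.44, 7.93 and 7.83 against 9.47, 9.59, 9.89 and 9.88, a rise of 1.82 ± 0.28 (adjusted p = 0.000151). The saline rats changed by -0.87, a difference of 2.69 ± 0.39 (adjusted p = 0.00199), and the EIH times did not overlap. Zmat3, another p53 target, rose by 2.05 ± 0.43 (adjusted p = 0.00203), whereas Mcl1, which protects short-lived myeloid cells from death, fell by 1.18 ± 0.26 (adjusted p = 0.00264) and Tp53inp1 fell by 1.27 ± 0.27 (adjusted p = 0.00237). Of 28 hypoxia and glycolysis genes, 16 fell and 2 rose, with a median of -0.93 against -0.63 in saline rats. The falls were 12 on the values as deposited or with quantile normalisation. The difference from saline was called lower for 2 and higher for 1 of 27 (11.1%, against 8.92% of all genes). Leaving out 1 array gave 1 to 3 lower and 0 to 2 higher for that difference. The 2 rises after EIH were 1 without EIH 3 h replicate 3 or any 1 array of EIH 1 day. Vegfa, the endothelial growth factor, fell by 1.57 ± 0.29 (adjusted p = 0.000827; difference -1.76 ± 0.41, adjusted p = 0.0155). Of 64 ribosomal protein genes, 12 rose and 1 fell, with a median of 0.23 against -0.22 in saline rats, and the count of rises was 12 to 29 over the scalings, 6 without EIH 3 h replicate 4 and 7 without EIH 1 day replicate 3. Rpl5 rose by 0.94 ± 0.18 (adjusted p = 0.00105). The medians of the respiratory chain list (-0.03, 3 up and 11 down of 56) and the cell cycle list (-0.05, 2 up and 8 down of 57) turned positive on the values as deposited, at 0.22 and 0.20. The respiratory chain counts were then 15 up and 4 down, against 13 and 5 with quantile normalisation and 8 and 6 at the same 75th percentile, and the 11 were 7 without EIH 1 day replicate 1. The cell cycle counts were 5 up and 4 down as deposited. After the shift, 25% of the respiratory chain list and 17.5% of the cell cycle list were called, against 20.4% of all genes.

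**Figure D4:**
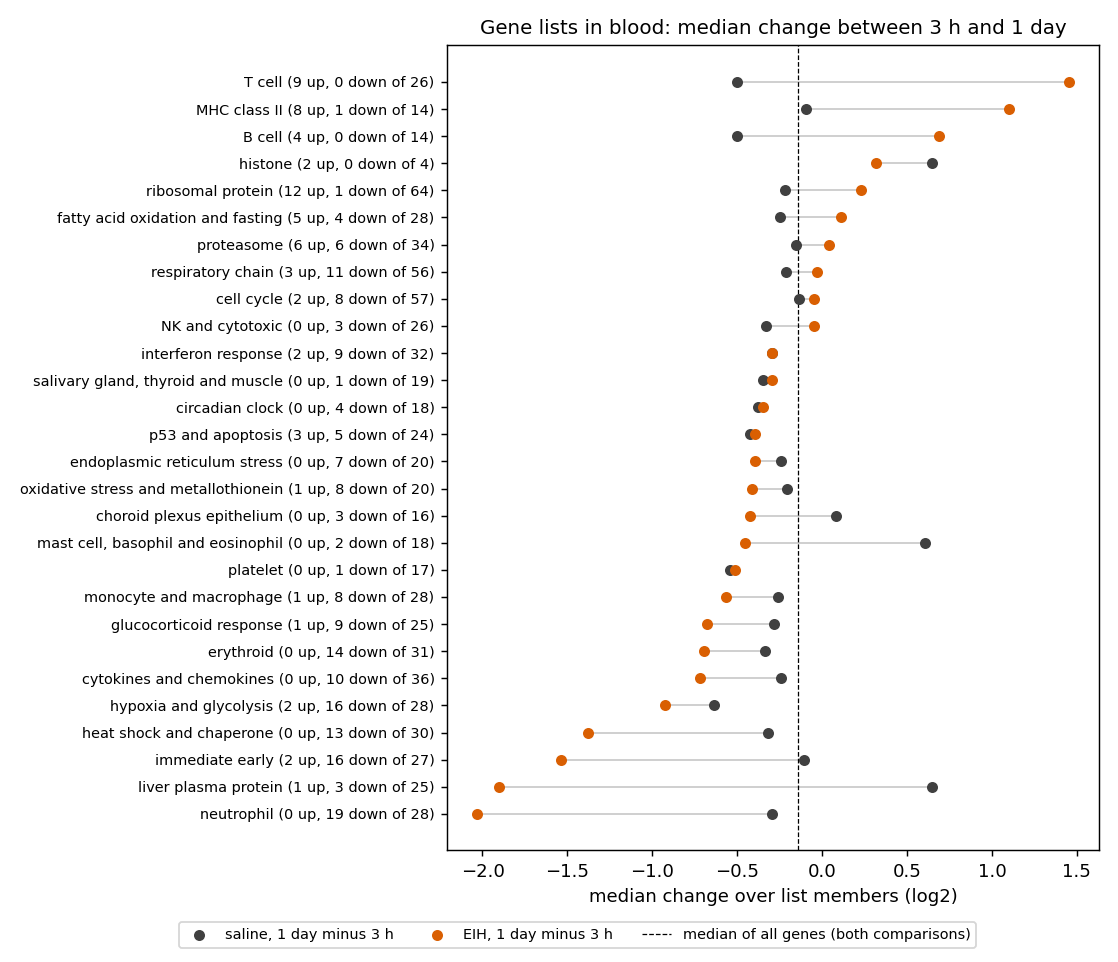
Median log2 change between 3 h and 1 day over the measured members of each gene list, in saline rats (dark points) and EIH rats (orange points), with the median of all genes (-0.14) as a dashed line and the counts of members that rose or fell after EIH in the labels. The neutrophil (-2.03), immediate early (-1.54) and heat shock (-1.38) lists lie to the left in EIH and near the line in saline, and the T cell (1.45) and MHC class II (1.10) lists lie to the right. The liver plasma protein list also lies to the left in EIH (-1.90), and to the right in saline (0.65).

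EIH was also compared with saline within each time, which needs no shift between the times. At 3 h, 1251 of 9893 genes differed between EIH and saline (12.6%), 567 higher (5.73%) and 684 lower (6.91%). Among them 18 heat shock genes were higher and 1 lower of 29, with a median of 2.18, and 16 immediate early genes were higher and 2 lower of 27, with a median of 1.49. Of 29 neutrophil genes, 16 were higher and 1 lower, and of 26 T cell genes 16 were lower and 0 higher. At 1 day, 6 of 9762 genes differed (0.0615%), 5 higher (0.0512%) and 1 lower (0.0102%), and 996 had an unadjusted p under 0.05. The 5 were Hsph1, Hsp90aa1, Dnajb1, Dnaja4 and Tsnax, of which 4 are chaperones, and the lower one was Ap2a1, a subunit of the clathrin adaptor AP-2. The heat shock median at 1 day was 0.59, that of the neutrophil list -0.12, of the immediate early list 0.00 and of the T cell list 0.01. No gene of the neutrophil, immediate early, cytokine, T cell, B cell or MHC class II list was called at 1 day, against 4 of the heat shock list (Hsph1, Hsp90aa1, Dnajb1 and Dnaja4). The count of 6 was 0 without saline 1 day replicate 3 or 4, without EIH 1 day replicate 3 or 4, without the rats with conflicting labels, or with only the compared groups in the fit. It was 1 without replicate 1 of either group and 11 without EIH 1 day replicate 2. Other settings gave more calls: 36 with array weights (33.3% of them higher, against 83.3% of the 6), 17 with an intensity trend and robust spread, 13 without the dimmest probes or for genes on all 24 arrays, and 10 with quantile normalisation.

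Dnaja4, an Hsp40, was 1.19 ± 0.21 above saline at 1 day (adjusted p = 0.0339). It read 10.53, 10.54, 10.47 and 10.54 at 3 h and 9.85, 9.90, 10.14 and 10.12 at 1 day after EIH, and the saline rats fell from 9.62, 9.70, 9.44 and 10.13 to 8.50, 9.15, 8.97 and 8.63 (-0.91 ± 0.21, adjusted p = 0.0444). The saline call of Dnaja4 was lost without any 1 of 6 of the 8 saline arrays (all but saline 1 day replicates 1 and 2; adjusted p of up to 0.12), under each other scaling, without the rats with conflicting labels (0.0577) and with only the compared groups in the fit (0.286). Tsnax, the partner of the RNA-binding protein translin, was called higher at 1 day after EIH and lower after saline: 7.72, 6.52, 7.43 and 6.78 against 8.30, 7.96, 8.48 and 8.31 after EIH, a rise of 1.15 ± 0.26 (adjusted p = 0.00332), and 7.93, 8.36, 8.25 and 8.12 against 6.73, 7.02, 7.07 and 6.69 after saline, a fall of -1.29 ± 0.26 (adjusted p = 0.0228). The saline call of Tsnax was lost without saline 3 h replicate 2, 3 or 4 or saline 1 day replicate 4 (adjusted p of up to 0.082), as deposited (0.0719), with quantile normalisation (0.0511) and with only the compared groups in the fit (0.268). Ap2a1 fell by 1.46 ± 0.19 after EIH (adjusted p = 5.45e-05) and changed by 0.29 after saline. The calls at 1 day were lost without any 1 of 6 of the 8 arrays for Dnaja4, 7 for Tsnax and 4 for Ap2a1, with an adjusted p of up to 0.172 for Tsnax without EIH 1 day replicate 3. These 3 genes were singled out after their values were seen.

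Amphetamine, which also raises body temperature in rats, gave a smaller count between the same times: 218 of 9941 genes changed (2.19%), 29 higher (0.292%) and 189 lower (1.9%). The EIH and AMPH time changes differed for 12 of 9667 genes (0.124%), 9 higher (0.0931%) and 3 lower (0.031%), with 1287 at an unadjusted p under 0.05. The count of 12 was 1 without AMPH 3 h replicate 2 and 32 without AMPH 1 day replicate 2. On the heat shock list 5 genes fell after AMPH: Dnaja1 by 1.73 (adjusted p = 0.0042), Hspb1 by 3.02 (adjusted p = 0.0277), Hspe1 by 1.94 (adjusted p = 0.0303), Zfand2a by 3.25 (adjusted p = 0.0351) and Hspd1 by 2.43 (adjusted p = 0.0393). The median was -0.76. The AMPH calls of Hspb1, Hspe1 and Hspd1 were lost without any 1 of 5 of the 8 AMPH arrays and that of Zfand2a without any 1 of 6, and all 5 were lost with only the compared groups in the fit (adjusted p from 0.0909 to 0.175). For Zfand2a the EIH fall exceeded the AMPH fall by -2.01 (adjusted p = 0.443). On the T cell list 0 genes were called after AMPH, with a median of 0.29, and on the neutrophil list 2 fell, with a median of -0.80. Elf4, an Ets family transcription factor of lymphocytes, was among the 9 genes: it rose after EIH from 7.13, 6.92, 6.85 and 6.52 to 8.48, 8.82, 8.17 and 7.65, and fell after AMPH from 10.44, 9.56, 9.0 and 8.56 to 7.76, 7.52, 7.94 and 7.97. The 2 time changes differed by 3.02 ± 0.51 (adjusted p = 0.0188; 0.0545 without AMPH 3 h replicate 2, 0.052 without the rats with conflicting labels and 0.0786 with only the compared groups). The fall after AMPH was lost without AMPH 3 h replicate 1 or 2 or AMPH 1 day replicate 1 or 2. Elf4 rose in the saline rats too, by 2.16 ± 0.36 (adjusted p = 0.0133), a call lost without saline 3 h replicate 4 (0.0503) and with only the compared groups (0.268). Cpm, Sln and Zfp251 were the 3 genes lower in EIH, by -2.84 ± 0.52, -1.76 ± 0.29 and -4.35 ± 0.70, and were named after their values were seen. These calls were lost without any 1 of 11 of the 16 arrays for Cpm, 6 for Zfp251 and 1 for Sln (AMPH 3 h replicate 2). Sln, a regulator of the muscle calcium pump, read 8.63, 8.77, 8.70 and 8.53 at 3 h and 7.72, 7.79, 7.43 and 7.62 at 1 day after EIH, and 7.91, 7.92, 8.16 and 8.07 and 8.72, 8.42, 9.07 and 8.81 after AMPH. Another probe of Sln changed by 0.56 after EIH, against -1.02 for the probe used.

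Transcripts of other tissues were measured beside these changes. Of 25 genes of liver plasma proteins, 3 fell and 1 rose between 3 h and 1 day after EIH (16% called, against 20.4% of all genes). The median was -1.90 (0.65 in saline rats, -2.68 after AMPH), and the difference from saline was called for 0. The 13 with a value on every array summed to 13507 to 27887 at 3 h after EIH, 3859 to 6028 at 1 day, 4441 to 7616 in saline rats at 3 h and 3578 to 10392 at 1 day. Tf, transferrin, fell by 1.73 ± 0.33 (adjusted p = 0.000896), and Apoa1, an apolipoprotein of the liver and gut, fell by 2.80 ± 0.82 (adjusted p = 0.019), a call lost without EIH 3 h replicate 1 (adjusted p = 0.0742) or EIH 1 day replicate 1 or 2. Alb, albumin, chosen after its values were seen, read 13.55, 9.12, 9.22 and 10.27 against 4.65, 6.47, 9.79 and 9.76, which overlapped. Of 16 choroid plexus epithelium genes tested, 3 fell (18.8%, against 11.8% of all genes), with a median of -0.43. The 3 were 1 without EIH 3 h replicate 3 or EIH 1 day replicate 3 or 4. The 7 with a value on every array summed to 15867 to 18491 at 3 h and 4885 to 10387 at 1 day after EIH, against 9819 to 13756 and 4551 to 9964 in saline rats. The defining genes Kl and Kcnj13 of this epithelium had a value on 3 arrays each at 3 h after EIH and on 2 each at 1 day, with means of log2 intensity from 4.45 to 5.11. Ttr, which the liver also makes, had means of 8.22 and 6.05 at 3 h and 1 day after EIH. Kl, Kcnj13 and Ttr lacked a value on some arrays and so are not in the sum. The sum rests on other members, and whether blood cells make these was not tested. The part of such transcripts in the changes above was not tested.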

How the data were processed

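The authors deposited 1 table of normalised linear intensity per probe for 44 Agilent arrays; per the labels, total RNA was amplified and labelled with Cy3. How this table was normalised, and what its blank entries mean, is not given in the sources used here. From the 24 blood arrays, intensity was log2 transformed, blanks were kept missing and no value was floored or imputed, and each array was shifted to the same median. Of 14055 probes, 12926 had 1 gene symbol and 1129 none (11481 through an accession, 1363 by a current symbol, 78 by a synonym, 4 as given), which gave 10412 genes. For the 2210 genes with several probes, the probe with the highest mean stood for the gene.

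Differences were tested with limma 3.58.1 in R 4.3.3 (lmFit and eBayes over the 6 blood groups of 4 rats, Benjamini-Hochberg adjustment over all genes with at least 2 values in each group compared, called at an adjusted p under 0.05). Changes are on the log2 intensity scale, and errors are SE. The number of arrays, blank entries and the top of the scale limit the precision. On simulated data, 17% of 2-fold and 58% of 4-fold changes were called for the EIH time change over 9936 genes, and 3% and 40% for the difference from saline over 9483 genes. In that simulation 100 genes were changed by each amount and all others were left unchanged. The data held more called genes (2024 for the EIH time change). The cutoff of the adjustment depends on that number, so these shares are not detection rates of the data.

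Members and gene lists were chosen with earlier results of these data known. The text names part of a set given by rule: the largest called rises and falls whose groups do not overlap, the largest called in the difference from saline and in saline, up to 4 members per list with the lowest unadjusted p, and common blood markers. Genes outside that rule are named as such or only counted: Hspd1, Hspe1, Serpinh1, Hsf1, Dnaja4, Klf2, Klf4, Ier3, RT1-Ba, Ctsh, Alb, Tsnax, Ap2a1, Cpm, Sln and Zfp251, chosen after their values were seen. Promoter patterns were searched in RefSeq windows on GRCr8. The alternatives were other scalings, filters, probe choices, spread models and leaving out arrays. Python 3.11.15, pandas 2.3.3, numpy 2.4.6 and matplotlib 3.10.9 were used beside R.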

Additional observations from a re-analysis of the deposited data

Results flagged for a closer look

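Single rats stood apart from their group of 4 for 31 gene values and 1 array correlation, by a gap to the nearest rat that, divided by the group's range, passed Dixon's 95% critical value, among 331 groups examined (9.67%); chance alone gives about 1 in 20. At 3 h after EIH, replicate 1 was low for Zfand2a (9.81), Hspa1b (14.50), Hspe1 (13.17), Hsph1 (11.08), Hsp90aa1 (12.85), Ptgs2 (5.85) and Nos2 (7.81) and high for Zmat3 (7.81), all as log2 intensity. Alas2, at the top of the scale, was low in replicate 3 (16.07). That array was shifted by 0.072, against 0.138, 0.141 and 0.137 for replicates 1, 2 and 4, so this gap cannot be read as one between rats. At 1 day after EIH, replicate 1 was high for Hsp90aa1 (14.24), Hmox1 (9.33), Acot2 (8.68) and Klf4 (11.61) and stood apart for Pf4 (15.13), and replicate 2 stood apart for Bag3 (9.89), Nfe2l2 (9.71), Prf1 (10.71) and Dnmt3b (6.98).

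S100a9 was low in replicate 3 of all 4 EIH and saline groups, at 8.65 and 7.17 for EIH 3 h and 1 day and 10.25 and 6.49 for saline 3 h and 1 day. Replicate 3 of the AMPH group was low at 1 day (9.22) and not at 3 h (14.68). In the saline rats at 3 h, replicate 1 was low for Ddit3 (8.79) and stood apart for Ier3 (7.79), C1qb (9.19) and Gzmb (8.14), replicate 2 was low for Klf4 (10.39) and replicate 4 was low for Cd8a (10.28). Saline 1 day replicate 4 was low for Hspa8 (10.51), RT1-DOa (6.20) and Cyp4f5 (6.46) and had the mean correlation of 0.854 with its group. The part of these arrays in the results was not tested beyond leaving each out.

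The EIH time change differed from the saline time change, by a test of the difference itself, for 846 genes. Among the named genes, chaperones were lower by -5.61 (Zfand2a), -6.17 (Hspa1b), -4.51 (Hspb1), -3.06 (Hspd1), -2.64 (Hspe1), -2.25 (Dnaja1) and -1.94 (Serpinh1). Stress genes were lower by -2.66 (Hmox1), -2.20 (Txnrd1), -1.48 (Nfe2l2) and -1.26 (Ddit3). Immediate early genes were lower by -4.52 (Jun), -2.32 (Junb), -2.37 (Fos), -2.62 (Fosl2), -4.34 (Atf3) and -3.07 (Ier3), and Klf2 was higher by 1.74. Inflammatory and myeloid genes were lower by -1.67 (Il1b), -3.89 (Ccl2), -5.11 (Ptgs2), -4.51 (Nos2), -2.32 (Padi4), -3.76 (Camp), -2.63 (Mmp8), -1.59 (Cxcr2), -6.31 (Defa5), -1.74 (Fcgr2a), -1.71 (Spi1), -1.73 (C1qb) and -2.77 (Cd14). Lymphocyte and class II genes were higher by 2.49 (Cd3g), 2.37 (Cd3e), 2.21 (Cd8a), 2.18 (Cd79b), 2.29 (RT1-Da), 2.08 (Ciita), 2.58 (RT1-DOa) and 2.07 (RT1-Ba). Mx1 was higher by 2.58, the only called gene of 32 on the interferon list, whose median was -0.18 with 15 estimates above 0 and 17 below. The calls of Hspd1, Serpinh1, Mmp8, Cxcr2, Cd14, RT1-Ba and Mx1 were lost on leaving out some single arrays, as given above. The remaining named genes were higher by 3.80 (Cyp4f5), 3.32 (Acot2), 3.22 (Atp6v1g3), 3.93 (Klhl8), 3.85 (Jup), 2.68 (Dnmt3b), 2.69 (Sesn1), 2.49 (Zmat3), 2.44 (Tsnax) and 1.05 (Rpl5), or lower by -1.47 (Mcl1), -1.86 (Tp53inp1), -1.74 (Ap2a1) and -1.76 (Vegfa).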

How the results depend on the processing

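The count of genes changed between 3 h and 1 day after EIH (2024) stayed within 1.5 times of itself under every alternative run, from 1600 to 2678 genes, and leaving out 1 array gave 1600 to 1889. Of 67 named genes called for it, 63 kept the call in every fit that tested them and 0 changed sign. Of 54 named genes called for the difference from saline, 45 kept the call in every fit that tested them and 1 changed sign: RT1-Ba gave -0.96 as a mean over its probes. The named genes were in part chosen by their changes in these same data, so these counts do not describe all called genes. The saline count (139) was 58 as deposited, 12 with quantile normalisation, 54 at the same 75th percentile, 240 without the dimmest probes, 355 with an intensity trend and robust spread, 0 with only the compared groups in the limma fit (1646 at an unadjusted p under 0.05 with all groups), 46 as a mean over probes, 307 for genes on all 24 arrays, 331 with a plain equal-variance test, 372 without the rats with conflicting labels, and 5 to 458 without 1 array. The difference from saline (846) was 1467 with array weights, 513 without the rats with conflicting labels and 441 to 886 without 1 array. The difference from AMPH (12) was 21 without the dimmest probes, 45 with the trend, 34 with array weights, 1 with only the compared groups, 3 as a mean over probes, 40 for genes on all 24 arrays, 69 with the plain test, 4 without the rats with conflicting labels and 1 to 32 without 1 array; the cause was not tested. No paired analysis was possible because the labels give rat numbers, which the groups do not share. Values near 60000 lie at the top of the scale, and probes at background cannot be told from blank entries here.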
